A study of Mus musculus with 4 samples.

Results

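The MHC class II presentation genes described here are 10 genes chosen by name, out of 24497 gene rows in the table of the series: the invariant chain gene Cd74, the class II chain genes H2-Aa, H2-Ab1 and H2-Eb1, the modulator genes H2-DMa, H2-DMb1, H2-Oa and H2-Ob, and the regulators Ciita and Rfx5. All 10 were found in the table. They were measured by RNA sequencing in cultured mouse acute myeloid leukaemia cells carrying NRAS and AE9a, an alternatively spliced product of the AML1-ETO fusion gene. The cells descended from marrow stem cells of mice that were wild type (WT, 2 libraries) or Tet2-/- (labelled Tet2 KO, 2 libraries), the latter lacking exon 3 of the DNA dioxygenase gene Tet2. Both groups carried the same oncogenes, had no treatment, and grew in RPMI medium with 50 ng/ml SCF, 10 ng/ml of each of IL-6 and IL-3, 2 µg/ml puromycin and 1 mg/ml G418. The labels state neither the strain and age of the mice nor the number of clones behind a group. The labels do not tie the libraries to separate cultures or animals, so every p-value below measures the spread between these libraries only, which may be technical.

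MHC class II molecules are pairs of an alpha and a beta chain that show peptides from endocytosed proteins to CD4 T cells. The chains assemble in the endoplasmic reticulum with the invariant chain, which blocks the groove and is cut down by endosomal proteases until the CLIP fragment remains. H2-DM, itself a pair of H2-DMa and H2-DMb products, exchanges CLIP for peptide, and H2-O, a pair of H2-Oa and H2-Ob products, inhibits H2-DM. Transcription of the class II chain, invariant chain and H2-DM genes depends on a promoter module of X and Y boxes, bound by the RFX complex and NF-Y, on which the coactivator CIITA assembles. Dendritic cells, B cells and macrophages are the usual carriers, and class II is also found on some myeloid leukaemia cells.

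The stretches below are shown because they hold that promoter module in genes that moved in opposite directions. They come from the RefSeq promoter table (GRCm38.p6, the same assembly as mm10), are written 5′ to 3′ on the strand of the gene, and carry the core GNAAC of the X box and ATTGG of the Y box in capitals. H2-Aa (chr17:34287857-34287914, minus strand) and H2-Eb1 (chr17:34305766-34305822, plus strand) were lower in Tet2 KO, and H2-Oa (chr17:34092293-34092350, plus strand) and H2-Ob (chr17:34238808-34238862, plus strand) were higher.
H2-Aa: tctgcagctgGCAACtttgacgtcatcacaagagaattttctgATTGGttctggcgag
H2-Eb1: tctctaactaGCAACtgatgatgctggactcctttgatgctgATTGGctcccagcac
H2-Oa: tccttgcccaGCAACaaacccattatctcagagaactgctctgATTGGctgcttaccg
H2-Ob: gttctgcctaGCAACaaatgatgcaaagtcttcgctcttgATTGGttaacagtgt
The cores were separated by 28 bases in H2-Aa, 27 in H2-Eb1, 28 in H2-Oa and 25 in H2-Ob, and the Y core ended 38 to 54 bases before the RefSeq start site. The GENCODE gene model of H2-Oa begins further upstream, so that the last 11 bases of its stretch lie inside it. The table held windows of 300 bases for 7 of the 10 genes, and none for Cd74, H2-Ab1 and Ciita, which were not searched. The pair AGNAAC followed by ATTGG on the same strand, 12 to 40 bases apart and searched on both strands, was found in 4 of the 7 (H2-DMb1, H2-Eb1, H2-Oa and H2-Ob) and in 1.57% of all 32851 windows. H2-Aa joined them with the shorter core GNAAC, chosen after its sequence had been seen, which gave 5 of 7 against 4.57% of all windows. A match is a description of letters and shows no binding. The pair was thus present in both genes that fell and genes that rose. Of the genes with a window, H2-DMa, which fell, and Rfx5 held it in neither form.

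The deposited unit is TPM, a share of all transcripts corrected for transcript length, so levels of different genes can be set side by side. Sequencing depth cannot be read from TPM and is unknown here. Log2 fold changes were computed on log2(TPM + 1), a scale that makes the changes of low genes look smaller than they are, and were tested with limma over the 11452 genes that reached 1 TPM in at least 2 libraries. Over all tested genes the median log2 fold change of Tet2 KO over WT was 0.228. Results are therefore also given after rescaling the libraries by their median ratio, which brings that median to -0.00389; "after rescaling" below means this. On the deposited scale 54.4% of tested genes were higher in Tet2 KO and 19.5% lower at an adjusted p under 0.05, and after rescaling 32.7% were higher and 34.8% lower. Tet2 itself had 16.62 and 16.98 TPM in the WT libraries and 16.98 and 16.95 TPM in the Tet2 KO libraries (limma adjusted p = 0.868), with a log2 fold change of -0.23 after rescaling (limma adjusted p = 0.00831). This gene-level value does not separate exon 3 and so does not check the label.

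Among the class II presentation genes, the invariant chain, all 3 class II chain genes and H2-DMa fell in Tet2 KO, while both H2-O genes rose. H2-DMb1 and Rfx5 were higher only on the deposited scale, and Ciita lay below the level needed for a test. Of the 9 genes tested, 4 were called higher and 5 lower, where 54.4% of all genes were higher and 19.5% lower. After rescaling 2 were higher and 5 lower, where the shares over all genes were 32.7% and 34.8%. Since 73.9% of all genes were called on the deposited scale and 67.5% after rescaling, being called does not set a gene apart here, and sizes and directions are given for each gene. H2-Aa and H2-Eb1 passed the filter only through the WT libraries and H2-Ob only with the Tet2 KO libraries, so whether these 3 were tested depended on the group where they were high. Without WT replicate 1 the count of higher genes was 2, with H2-DMb1 and Rfx5 not called. The median log2 fold change of the 9 was -0.89, beside 0.228 over all genes, and after rescaling -1.06, beside -0.00389.

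**Figure D1:**
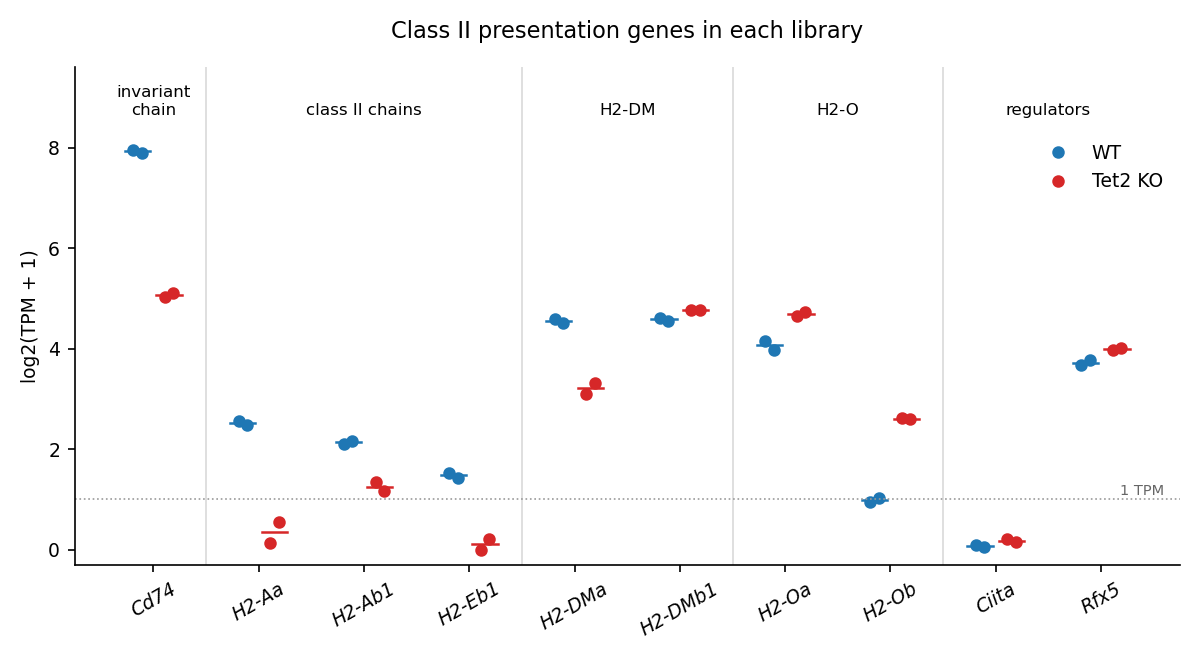
Level of each of the 10 genes in each library, as log2(TPM + 1). Points are single libraries (2 WT, 2 Tet2 KO), short bars are drawn at the mean TPM of each group, and the dotted line marks 1 TPM. Cd74 stands far above the chain genes in both groups, and Ciita lies near 0 in all libraries.

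Cd74 (ENSMUSG00000024610.15, chromosome 18, 60803848 to 60812652, mm10) had 246.63 and 238.83 TPM in the WT libraries against 31.58 and 33.68 TPM in the Tet2 KO libraries. Both Tet2 KO libraries lay far below both WT libraries. The mean fell from 243 ± 5.52 to 32.6 ± 1.48 TPM (SD, n = 2), 7.44-fold, with a log2 fold change of -2.86 (SE 0.0512, limma adjusted p = 9.68e-17). After rescaling the change was -3.11 (limma adjusted p = 5.92e-09). Cd74 was nevertheless the most abundant of the 10 genes in both genotypes. As these are bulk libraries, fewer cells expressing a gene and less RNA of it per cell cannot be told apart.

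H2-Aa, the alpha chain gene of the I-A molecule (chromosome 17, 34282744 to 34287823), had 4.94 and 4.59 TPM in the WT libraries against 0.09 and 0.47 TPM in the Tet2 KO libraries. Its mean went from 4.77 ± 0.247 to 0.28 ± 0.269 TPM, a log2 fold change of -2.19 (SE 0.144, limma adjusted p = 2.33e-09). The Tet2 KO libraries differed from each other by more than their mean, so the size of the fold rests on values close to 0. With a pseudocount of 0.1 the log2 fold change was -3.88 and with 5 it was -0.89, so its size depends on the pseudocount while its direction did not.

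H2-Ab1, which encodes the beta chain that pairs with H2-Aa (chromosome 17, 34257689 to 34269419), had 3.32 and 3.47 TPM in the WT libraries against 1.53 and 1.23 TPM in the Tet2 KO libraries. It fell less than its partner, with a log2 fold change of -0.89 (SE 0.119, limma adjusted p = 4.77e-06), and remained above 1 TPM in both Tet2 KO libraries. H2-Eb1, the beta chain gene of the I-E molecule (chromosome 17, 34305867 to 34316674), was at 1.88 and 1.69 TPM in WT. In Tet2 KO it was listed at 0 in replicate 1 and at 0.16 TPM in replicate 2, a log2 fold change of -1.37 (SE 0.139, limma adjusted p = 1.94e-07). No other I-E locus of the table was expressed: H2-Eb2 and the alpha chain locus H2-Ea-ps, annotated as a polymorphic pseudogene, were listed at 0 in all 4 libraries. With pseudocounts of 0.1 and 5 the log2 fold change of H2-Eb1 was -3.55 and -0.42, and that of H2-Ab1 -1.25 and -0.40. For each of the 3 chain genes both WT libraries were above both Tet2 KO libraries.

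**Figure D2:**
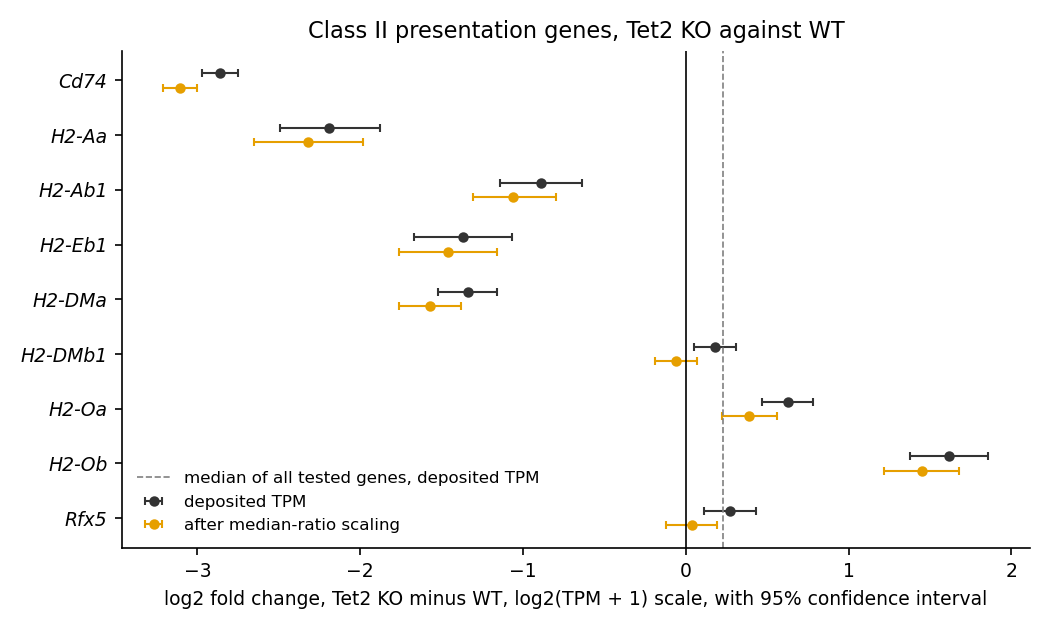
Log2 fold change of Tet2 KO over WT for the 9 tested genes with 95% confidence intervals from limma, on deposited TPM (dark) and after median-ratio scaling (orange). The dashed line is the median of all tested genes on deposited TPM, 0.228. H2-DMb1 and Rfx5 lie near that line, and their intervals include 0 after scaling.

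H2-DMa (chromosome 17, 34119541 to 34139101), which encodes the alpha chain of the peptide exchanger H2-DM, had 23.15 and 21.83 TPM in the WT libraries against 7.57 and 9.03 TPM in the Tet2 KO libraries. The mean fell 2.71-fold, from 22.5 ± 0.933 to 8.3 ± 1.03 TPM (log2 fold change -1.34, SE 0.0848, limma adjusted p = 7.90e-10). Its beta chain partner H2-DMb1 (chromosome 17, 34153072 to 34160230) did not follow. H2-DMb1 had 23.43 and 22.60 TPM in the WT libraries against 26.29 and 26.20 TPM in the Tet2 KO libraries, a log2 fold change of 0.18 (SE 0.0622, limma adjusted p = 0.0148). After rescaling its change was -0.06 (95% interval -0.19 to 0.07, limma adjusted p = 0.352). Its limma adjusted p was 0.0518 without WT replicate 1 and 0.133 without WT replicate 2, and lay between 0.00916 and 0.411 over all alternatives.

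A second beta chain gene, H2-DMb2, lies beside H2-DMb1 (chromosome 17, 34143307 to 34151555). It had 3.58 and 5.25 TPM in the WT libraries against 1.59 and 1.81 TPM in the Tet2 KO libraries (log2 fold change -0.99, SE 0.142, limma adjusted p = 2.99e-05). The genes are close copies: 22.7% of the 50-base stretches in H2-DMb1 transcripts also occur in H2-DMb2 transcripts, so reads may have been divided between them and the value of each is uncertain. Their sum, which depends less on that division, was 27 and 27.9 TPM in WT against 27.9 and 28 TPM in Tet2 KO. On deposited TPM the summed beta chain level therefore lay within 1 narrow range in all 4 libraries, while the alpha chain gene did not. Rescaling divides TPM by 0.911 and 0.9253 in WT and by 1.0813 and 1.1068 in Tet2 KO. The sum is then lower in Tet2 KO, so its constancy depends on the scale.

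H2-Oa (chromosome 17, 34092340 to 34095234), the alpha chain gene of the H2-DM inhibitor H2-O, had 16.74 and 14.74 TPM in the WT libraries against 24.23 and 25.48 TPM in the Tet2 KO libraries. It rose 1.58-fold in mean TPM, from 15.7 ± 1.41 to 24.9 ± 0.884 (log2 fold change 0.63, SE 0.073, limma adjusted p = 9.34e-07), and by 0.39 after rescaling (limma adjusted p = 0.00176). H2-Ob (chromosome 17, 34238903 to 34254414), the beta chain gene, went from 0.94 and 1.03 TPM in WT to 5.14 and 5.03 TPM in Tet2 KO. This was a 5.16-fold rise, from 0.985 ± 0.0636 to 5.08 ± 0.0778 TPM (log2 fold change 1.62, SE 0.113, limma adjusted p = 2.10e-09), and 1.45 after rescaling (limma adjusted p = 5.51e-06). With a pseudocount of 5 the change of H2-Ob was 0.75. The WT libraries were the low ones for both genes, without overlap between groups.

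Ratios between genes of 1 library do not change when the library is rescaled, and they differed between the genotypes. H2-DMa stood at 0.988 and 0.966 of the H2-DMb1 level in WT and at 0.288 and 0.345 in Tet2 KO. H2-DMa and H2-DMb1 were thus near parity in WT and not in Tet2 KO. Over the sum of H2-DMb1 and H2-DMb2, H2-DMa stood at 0.857 and 0.784 in WT and at 0.272 and 0.322 in Tet2 KO. Against that sum it was below parity in both groups. H2-Oa exceeded H2-Ob 17.8-fold and 14.3-fold in WT and 4.71-fold and 5.07-fold in Tet2 KO. H2-Aa over H2-Ab1 was 1.49 and 1.32 in WT and 0.0588 and 0.382 in Tet2 KO, the low values resting on H2-Aa levels near 0. The ratio of the alpha chain genes of H2-DM and H2-O, H2-DMa over H2-Oa, was 1.38 and 1.48 in WT and 0.312 and 0.354 in Tet2 KO, so their order was inverted. The order of H2-DMb2 and H2-Ob was inverted too. The other pairings of H2-DMa or H2-DMb1 with an H2-O gene kept their order. In Tet2 KO H2-DMa, at 7.57 and 9.03 TPM, was above H2-Ob, at 5.14 and 5.03 TPM. H2-DMb1, at 26.29 and 26.20 TPM, was above H2-Oa, at 24.23 and 25.48 TPM. The alpha chain ratio therefore does not stand for the ratio of the H2-DM and H2-O pairs. The ratio of Cd74 to the chain genes moved least: Cd74 was 24.3-fold and 24.5-fold above the sum of the 3 chain genes in WT and 19.5-fold and 18.1-fold above it in Tet2 KO. That sum was 10.1 and 9.75 TPM in WT against 1.62 and 1.86 TPM in Tet2 KO. These ratios are given as descriptions and were not tested.

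**Figure D3:**
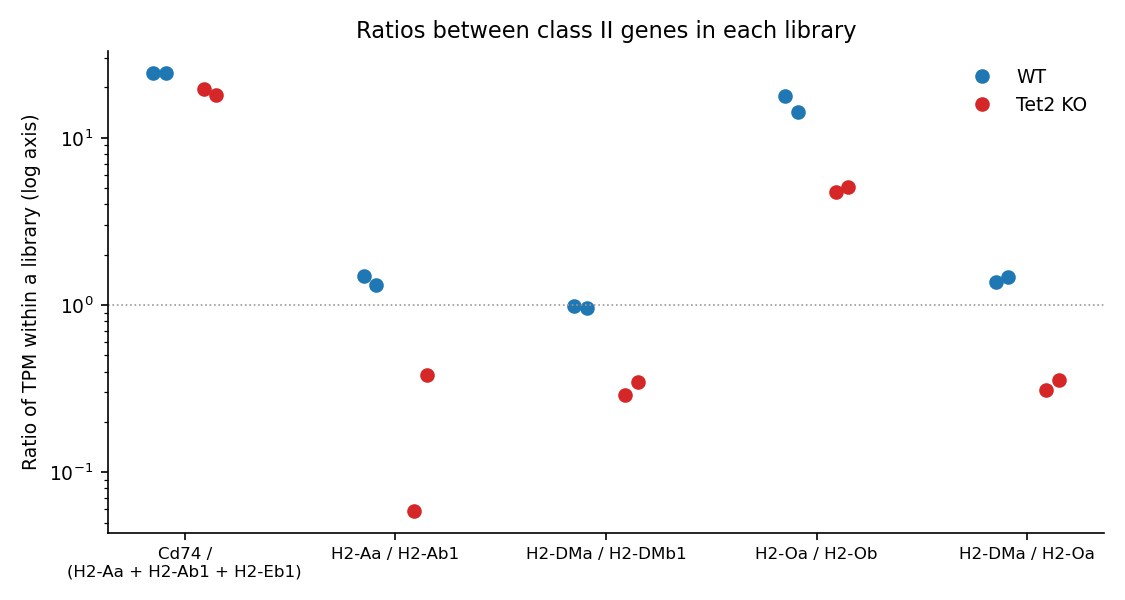
Ratios of TPM between class II genes within each library, on a log axis. Points are single libraries (2 WT, 2 Tet2 KO) and the dotted line marks equal levels. H2-DMa over H2-DMb1 moves from near 1 in WT to 0.288 and 0.345 in Tet2 KO, and Cd74 over the summed chains moves least.

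Ciita (chromosome 16, 10480059 to 10528418), which encodes the class II transactivator, had 0.07 and 0.04 TPM in the WT libraries against 0.15 and 0.11 TPM in the Tet2 KO libraries, below 1 TPM everywhere. With no filter on low values it had a log2 fold change of 0.10 (SE 0.0443, limma adjusted p = 0.111). Both Tet2 KO values were above both WT values, at levels too low to read a direction from. Rfx5 (chromosome 3, 94954075 to 94961561), a DNA-binding subunit of the RFX complex, had 11.70 and 12.74 TPM in the WT libraries against 14.68 and 15.23 TPM in the Tet2 KO libraries. Rfx5 had a log2 fold change of 0.27 (SE 0.0767, limma adjusted p = 0.00445) on deposited TPM and 0.04 after rescaling (95% interval -0.12 to 0.19, limma adjusted p = 0.642). Without WT replicate 1 the limma adjusted p of Rfx5 was 0.0799, and over all alternatives it lay between 0.00298 and 0.975.

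The order of levels changed with genotype. In WT, Cd74 was followed by H2-DMb1 and H2-DMa, whose ranges overlapped, then H2-Oa, Rfx5, H2-Aa, H2-Ab1, H2-Eb1, H2-Ob and Ciita, each apart from its neighbour. In Tet2 KO the order after Cd74 was H2-DMb1, H2-Oa, Rfx5, H2-DMa, H2-Ob and H2-Ab1. H2-Aa, Ciita and H2-Eb1 came last, with overlapping ranges. The gap between Cd74 and H2-DMb1 narrowed from 243 against 23 TPM in WT to 32.6 against 26.2 TPM in Tet2 KO.

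The 7 class II genes on chromosome 17 lie within 224.3 kb (34092340 to 34316674), and neighbours there moved in opposite directions. Of the 6 other tested genes in this interval, which were looked at for their position after values had been seen, 4 were higher, 1 lower and 1 not called, or 3 higher, 2 lower and 1 not called after rescaling. The lower one was H2-DMb2, itself a class II gene, and Psmb9 joined it after rescaling. Over all genes 54.4% were higher and 19.5% lower, or 32.7% and 34.8% after rescaling. Tap1, a subunit gene of the class I peptide transporter that sits between the H2-DM and H2-O beta chain genes, rose from 17.3 to 31.6 TPM (log2 fold change 0.83, SE 0.0692, limma adjusted p = 1.78e-08). Tap2, its partner, went from 58.5 to 92.9 TPM (0.66, SE 0.0548, limma adjusted p = 1.82e-08). H2-Ob, which rose, starts 146.6 kb from the start of H2-Oa, and its neighbour H2-Ab1, which fell, starts at 165.3 kb.

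**Figure D4:**
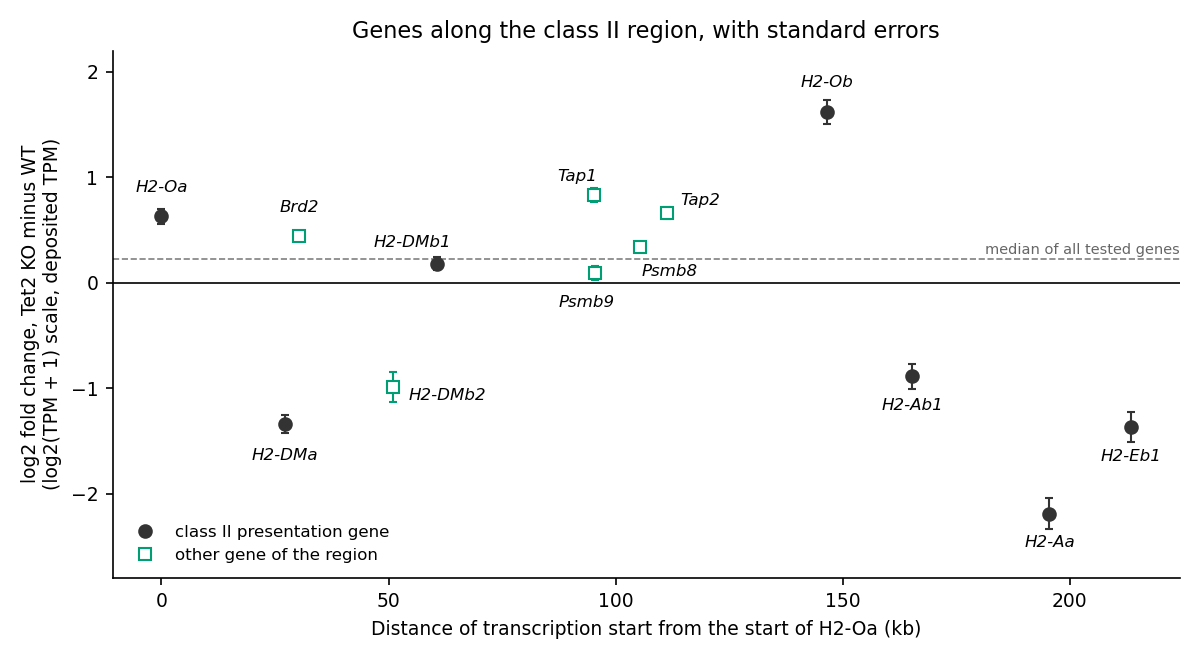
Log2 fold change of Tet2 KO over WT, with standard errors from limma, for the 13 tested genes of the class II interval, against the distance of their transcription start from that of H2-Oa in kb. Filled circles are the class II presentation genes chosen by name, open squares other genes, H2-DMb2 among them, and the dashed line is the median of all tested genes. Higher and lower genes are interspersed along the interval.

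Proteins that bind the class II promoter or assemble with CIITA were mostly higher on the deposited scale. Of 12 listed genes, 8 rose, 1 fell and 3 were not called, with a median log2 fold change of 0.30, little above that of all genes, and after rescaling 5 rose and 3 fell. The shares over all tested genes were 54.4% higher and 19.5% lower, or 32.7% and 34.8% after rescaling. The histone acetyltransferase genes rose: Crebbp from 14.3 ± 0.29 to 24.2 ± 1.66 TPM, Ep300 from 38.1 ± 0.771 to 61.9 ± 1.9 TPM and Kat2b from 12.5 ± 0.262 to 19.1 ± 0.262 TPM. Creb1, whose product binds the X2 box, rose from 11.7 ± 0.269 to 16.8 ± 0.983 TPM, and the NF-Y subunit gene Nfyb from 16.8 ± 0.948 to 23.2 ± 0.509 TPM. The other RFX subunits differed little from the general shift. Rfxank went from 10.8 ± 0.311 to 14 ± 0.643 TPM, a rise (limma adjusted p = 7.33e-04) not called after rescaling (limma adjusted p = 0.162). Rfxap was at 9.74 ± 0.113 and 10.2 ± 0.325 TPM (limma adjusted p = 0.485), and its direction turned to -0.17 after rescaling. The gene that fell was Smarca4, the BRG1 chromatin remodeller gene, from 72.6 ± 0.453 to 60.8 ± 1.68 TPM (log2 fold change -0.25, limma adjusted p = 3.89e-04), far less than Cd74.

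Genes upstream of Ciita moved both ways. Of 13 tested, 7 rose, 4 fell and 2 were not called (median 0.32), or 5 rose and 5 fell after rescaling. Over all genes 54.4% were higher and 19.5% lower, or 32.7% and 34.8% after rescaling. Irf8, a transcription factor gene of monocyte and dendritic cell development, fell from 31.1 ± 0.0778 to 13.3 ± 0.502 TPM (log2 fold change -1.16, SE 0.0658, limma adjusted p = 1.57e-10). Jak2 and Jak1, kinase genes of the interferon gamma receptor, rose from 62.3 ± 1 to 100.4 ± 2.46 TPM and from 113 ± 1.29 to 153 ± 0.375 TPM. Irf1, an interferon-induced activator of Ciita, rose from 7.04 ± 0.361 to 10.6 ± 0.573 TPM. Spi1, the PU.1 gene, fell from 300.4 ± 7 to 224 ± 5.99 TPM, and the interferon gamma receptor genes fell too, Ifngr1 from 67.7 ± 0.806 to 58.5 ± 0.431 TPM and Ifngr2 from 98.8 ± 0.276 to 75.9 ± 2.31 TPM. Myc rose from 103 ± 0.304 to 166 ± 2.76 TPM and Bhlhe40 from 217 ± 8.77 to 300.1 ± 3.82 TPM.

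Endosomal proteases that cut the invariant chain and antigens were mostly lower. Of 11 genes, 7 fell, 2 rose and 2 were not called, with a median log2 fold change of -0.64, and after rescaling 9 fell and 0 rose. Over all tested genes 19.5% were lower and 54.4% higher, or 34.8% and 32.7% after rescaling. Ctss, which encodes cathepsin S, the main enzyme of the last invariant chain cuts in professional antigen-presenting cells, had 493.29 and 504.74 TPM in the WT libraries against 132.66 and 123.61 TPM in the Tet2 KO libraries (log2 fold change -1.95, SE 0.0435, limma adjusted p = 1.45e-15). Ctsh fell from 21.8 ± 2.04 to 6.55 ± 0.269 TPM, and Lgmn, the asparaginyl endopeptidase gene, from 97.7 ± 0.198 to 33.5 ± 0.983 TPM. Ctsl, Ctsb and Ctsz fell 1.95-fold, 1.89-fold and 1.56-fold. The 2 that rose on deposited TPM, the cathepsin D gene Ctsd (log2 fold change 0.17) and Tpp1 (0.22), turned to -0.08 and -0.03 after rescaling, with no call. The uncalled 2 were Ifi30, the gene of the lysosomal thiol reductase GILT, at 82.1 ± 1.48 and 84.2 ± 1.4 TPM, and Sppl2a, whose protease clears the membrane stub of the invariant chain, at 39.2 ± 1.75 and 36.6 ± 2.74 TPM. After rescaling both were lower, by a log2 fold change of -0.22 for Ifi30 (limma adjusted p = 0.00218) and -0.34 for Sppl2a (limma adjusted p = 0.00205).

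**Figure D5:**
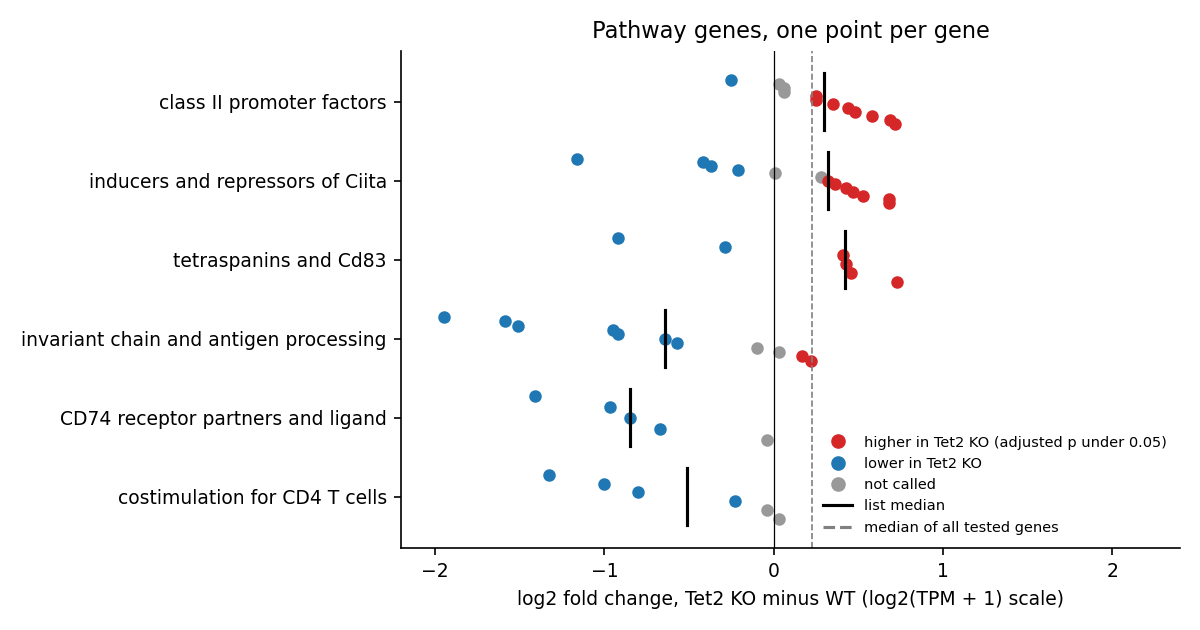
Log2 fold change of Tet2 KO over WT for the tested genes of 6 lists around class II presentation, 1 point per gene, coloured by the limma call on deposited TPM. Black bars are list medians and the dashed line is the median of all tested genes. The promoter and Ciita lists centre near the dashed line, and the processing, CD74 partner and costimulation lists lie to its left.

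CD74 at the cell surface also acts as a receptor of the cytokine MIF, together with CD44 and chemokine receptors. Of the 5 genes of this list 4 fell and 0 rose (median -0.85), or 5 fell after rescaling. The share of all tested genes that was lower was 19.5%, or 34.8% after rescaling. Cd44 fell from 167 ± 5.04 to 62.2 ± 2.47 TPM, Cxcr2 from 97.4 ± 2.11 to 49.2 ± 1.27 TPM, the MIF homologue gene Ddt from 59.5 ± 0.339 to 32.6 ± 2.33 TPM and Mif from 391 ± 8.2 to 245 ± 3.61 TPM. Cxcr4 was at 103 ± 2.02 and 100 ± 1.4 TPM (limma adjusted p = 0.455), and at a log2 fold change of -0.29 after rescaling (limma adjusted p = 5.38e-04). Cd74 thus fell more than each of its listed partners on the log2 scale, a difference that was not tested.

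Costimulatory ligands that act beside class II were lower or not called. Of 6 tested genes 4 fell and 0 rose (median -0.52), or 5 fell after rescaling. For this list and the next, the shares over all genes were 54.4% higher and 19.5% lower, or 32.7% and 34.8% after rescaling. Cd86 passed the filter only through the WT libraries, so whether it was tested depended on the group where it was high. Cd86 fell from 2.97 ± 0.198 to 0.58 ± 0.0283 TPM, Cd80 from 14.4 ± 0.46 to 7.86 ± 0.233 TPM, Tnfsf4, the OX40 ligand gene, from 6.05 ± 0.757 to 2.56 ± 0.721 TPM and Icam1 from 51.7 ± 0.806 to 44 ± 0.467 TPM. Of the tetraspanin genes and Cd83, whose product opposes class II ubiquitination, 4 of 6 rose and 2 fell (3 and 2 after rescaling). Cd37 rose from 100.3 ± 0.841 to 167 ± 4.64 TPM, Cd63 from 1318 ± 63.1 to 1808 ± 16.6 TPM and Cd82 from 67.2 ± 0.898 to 90.7 ± 2.37 TPM. Cd9 fell from 1130.2 ± 3.56 to 598 ± 3.74 TPM and Cd81 from 229.8 ± 6.46 to 188 ± 2.05 TPM. Cd83, which passed the filter only through the Tet2 KO libraries, was at 0.885 ± 0.0212 and 1.5 ± 0.205 TPM (limma adjusted p = 0.00961), a call lost after rescaling (limma adjusted p = 0.0732), without WT replicate 1 (limma adjusted p = 0.0517) and without Tet2 KO replicate 1 (limma adjusted p = 0.0687).

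Markers of the cells that usually carry class II were examined in the same libraries. The myeloid label was met, since all 10 blast and myeloid markers passed the filter. Of these 5 rose and 5 fell, or 3 rose and 6 fell after rescaling, and their summed level was 3288 and 3303 TPM in WT against 2685 and 2702 TPM in Tet2 KO. Beside these and the marker counts below, 54.4% of all genes were higher and 19.5% lower, or 32.7% and 34.8% after rescaling. Kit, the stem cell factor receptor gene, rose from 11.8 ± 0.255 to 205 ± 5.81 TPM and the myeloperoxidase gene Mpo from 91.8 ± 0.389 to 157 ± 5.7 TPM, while Itgam, the CD11b gene, fell from 383 ± 3.82 to 224 ± 4.72 TPM. The listed granule protease genes fell, Elane from 38.2 ± 1.35 to 10.8 ± 0.212 TPM, Ctsg from 1194 ± 0.933 to 732 ± 7.83 TPM and Prtn3 from 116 ± 4.97 to 61.1 ± 4.32 TPM. Fcgr3 also fell, and Ptprc, Cd34 and Cebpa rose on deposited TPM. B cell markers were nearly absent, with 9 of 10 below 1 TPM in every library, Pax5, Ebf1 and Blk at 0 throughout, and a summed level of 2.69 and 2.83 TPM in WT and 1.18 and 1.71 TPM in Tet2 KO. In WT most of that sum was Cd22, which fell from 2.59 ± 0.0566 to 0.6 ± 0.24 TPM, while Cd79b, listed at 0 in WT, had 0.59 and 0.79 TPM in the Tet2 KO libraries. Of 13 dendritic cell markers 9 were below 1 TPM everywhere, Flt3, Zbtb46, Xcr1 and Siglech among them, and Cd209a was at 0. Their summed level was 115 and 113 TPM in WT against 143 and 147 TPM in Tet2 KO, made up mainly of Itgax, the CD11c gene, which fell from 86.4 ± 0.0919 to 10.4 ± 1.12 TPM, and Clec10a, which rose from 16.8 ± 1.29 to 129.9 ± 2.16 TPM. Batf3 fell from 8.12 ± 0.629 to 2.65 ± 0.594 TPM. Among the dendritic cell markers below 1 TPM, Clec9a had 0.66 and 0.74 TPM in WT and 0.03 and 0.02 TPM in Tet2 KO. Flt3 went the other way, with 0.00 and 0.02 TPM in WT and 0.11 and 0.22 TPM in Tet2 KO. Of 12 macrophage markers 7 were tested, and 5 fell and 2 rose, or 6 fell and 1 rose after rescaling. The count that rose was also 1 without WT replicate 1, without WT replicate 2 or without Tet2 KO replicate 2. Their summed level was 2097 and 2051 TPM in WT against 1362 and 1387 TPM in Tet2 KO, with C1qa at 0 throughout. Csf1r fell from 100.1 ± 0.863 to 41.4 ± 2.84 TPM and Mrc1 from 25.8 ± 0.375 to 6.28 ± 0.587 TPM. Cd68, Mertk and Ly6c2 fell too. The markers that rose were Fcgr1, from 2.78 ± 0.099 to 5.19 ± 0.0283 TPM, and Adgre1, from 302 ± 0.849 to 322 ± 6.41 TPM. After rescaling Fcgr1 was still higher (log2 fold change 0.51) and Adgre1 was lower (-0.16). Of 6 T cell markers 5 were below 1 TPM in every library, with Cd3e and Cd3g at 0, and Lck rose from 0.73 ± 0.255 to 3.56 ± 0.0283 TPM. Cd22 and Lck passed the filter only through the group where each was high, so whether they were tested depended on that group. The part of the dendritic cell and macrophage markers in the class II result was not tested.

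The genes whose profile over the 4 libraries was most like that of Cd74, by the Euclidean distance between centred log2(TPM + 1) values among 11448 other tested genes, were Angptl2 (distance 0.0885), Ccnd1 (0.092), Itgax (0.119), Tlr8 (0.159) and Atp6v0d2 (0.189). Angptl2, a secreted angiopoietin-like protein gene, had 57.92 and 60.13 TPM in the WT libraries against 7.22 and 7.30 TPM in the Tet2 KO libraries. Ccnd1, the cyclin D1 gene, had 52.30 and 54.95 TPM in the WT libraries against 6.22 and 6.99 TPM in the Tet2 KO libraries. None of the class II chain genes was among these 5. For H2-Ob the nearest were Igf2bp3 (0.0164), Tfdp2 (0.0349), Etnk1 (0.0355), Crebrf (0.0414) and Fut8 (0.0437). Igf2bp3, which encodes an RNA-binding protein, had 0.54 and 0.63 TPM in the WT libraries against 3.95 and 3.83 TPM in the Tet2 KO libraries. It passed the filter only through the Tet2 KO libraries, so whether it was compared depended on the group where it was high. With 4 libraries in 2 groups such a distance mostly reflects the size of the difference between genotypes.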

How the data were processed

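RNA libraries came from a kit that keeps strand, per the labels' protocols. The submitters' processing notes name STAR, RSEM and mm10, without versions, and no annotation release or filter is stated. The authors deposited TPM for 24589 rows. Of these, 92 are ERCC spike-ins (4.375 to 5.483% of the total), which were left out of the tests, and 27 have date-like names, were tested and were not named. March1 and March8 were not analysed here, and 1 gene was left out of the list around Ciita and is not reported here.

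Genotypes were compared with limma 3.58.1 (R 4.3.3, statmod 1.5.0; trend and robust estimation) on log2(TPM + 1), over the 11452 genes reaching 1 TPM in 2 or more libraries. P-values are two-sided with Benjamini-Hochberg adjustment over these genes and a threshold of 0.05. The procedure was tested on simulated data in which few genes changed, equally in both directions. That test does not cover a shift over most genes, as seen here, or technical replicates. Positions are from GENCODE M21 (mm10), and promoter windows, 250 bases before to 50 after the start, from RefSeq. Figures used matplotlib 3.10.9.

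The members, lists and tests were chosen with earlier results of these data known. Named are the 10 members, other class II loci, up to 6 called genes of largest change per pathway list, uncalled list genes where few, and the 5 nearest profiles. Smarca4, Spi1, Ifngr1, Ifngr2, Ctsd, Tpp1, Tap1, Tap2 and the cell type markers given with values were chosen after their values were seen. Alternatives were other scalings, pseudocounts, filters and variance models, a replicate block and leaving out each library.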

Additional observations from a re-analysis of the deposited data

How the results depend on the processing

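Over all alternatives that gave a value (14 or 15 per gene), Cd74, H2-Aa, H2-Ab1, H2-Eb1, H2-DMa, H2-Oa and H2-Ob kept their direction and call. H2-Aa, H2-Ab1 and H2-Eb1 have no value with a filter of 5 TPM, and Ciita has one only with no filter. The number of these genes called higher was 2 in place of 4 with median-ratio scaling, quantile normalization and scaling to the spike-ins, and 2 to 4 when single libraries were left out, 2 being the count without WT replicate 1. The number called lower was 2 in place of 5 with the filter of 5 TPM, because fewer genes were tested, and 5 without any single library. Over all genes, 6225 higher and 2238 lower became 3743 and 3982 with median-ratio scaling, 3951 and 3734 with quantile normalization and 3394 and 4324 with scaling to the spike-ins. Under these 3 scalings, in that order, promoter factors called higher were 5, 5 and 4 in place of 8 and lower 3, 2 and 4 in place of 1, and processing genes called higher were 0, 1 and 0 in place of 2. Of the tetraspanin and Cd83 list, 2 in place of 4 were higher with the spike-ins. The cause of these changes was not tested. The other list counts of the pathway genes were within 1.5 times the value given.

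Among the class II genes and the pathway genes named above, log2 fold changes turned sign, in the same order, to -0.06, -0.05 and -0.10 for H2-DMb1, to -0.17, -0.20 and -0.21 for Rfxap, and to -0.22, -0.13 and -0.26 for Ifi30. Rfx5 turned to -0.01 with quantile normalization and -0.0035 with the spike-ins, Ctsd to -0.08 and -0.12 and Tpp1 to -0.03 and -0.07 with median-ratio scaling and the spike-ins. With median-ratio scaling Tet2 also turned to -0.23, and of the other listed genes Hdac1 to -0.22, Hdac2 to -0.19, Usf1 to -0.24, Tnfsf9 to -0.19, Adgre1 to -0.16, Cd34 to -0.16 and Ptprc to -0.0036.

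Same-numbered libraries share only a number: their deviations from the group means correlated at -0.0561 over tested genes. With the replicate block 6179 genes were higher and 2211 lower, and of the class II genes 4 were higher and 5 lower. Unknown depth limits what the values below 1 TPM of H2-Aa, H2-Eb1 and Ciita can show.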
